A study of Mus musculus with 45 samples.

Results

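The genes described here are those of glycolysis and of the hypoxia response, chosen as a list of 36 symbols whose rows in the gene count table were found through their Ensembl identifiers. The symbol Aldoa is carried by 2 identifiers, so the list holds 37 rows of the 54532 in the table, and the weaker row, ENSMUSG00000114515, which reached at most 119 counts, is named by its identifier. RNA was sequenced from organoids of R1 cells, a wild-type mouse embryonic stem cell line, which were grown clonally in Matrigel in N2B27, a serum-free neural induction medium. At day 2 the medium was renewed with or without all-trans retinoic acid (RA), a signal that gives neural tissue a more posterior identity. The 45 libraries fall into 15 groups of 3: day 2 itself, and 7 later time points (8 and 18 h after day 2, then every 12 h up to 78 h) in untreated and in RA-treated organoids. The study's methods give the RA dose as 250 nM, whereas the protocol deposited with the samples gives the same figure in µM and somewhat different hours, and the sample titles are followed here. All organoids come from 1 line, and the 3 libraries of a group are biological replicates that the study's methods describe as independent samples. The p-values measure the spread between these libraries.

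Library totals ran from 17298632 to 39688686 counts, and 2 libraries of a group never agreed within sampling noise. Of 7 neuroepithelial markers, 6 rose and 1 fell in untreated organoids between day 2 and 78 h, and all 6 pluripotency markers fell. Low Y-linked expression set 6 libraries apart (4 genes averaged 1.22 to 3.65 CPM, read counts scaled to library size with TMM normalisation, against 22.9 to 89.5 CPM in the other 39 libraries): the 3 untreated libraries at 30 h, RA 8 h replicate 3, and RA 30 h replicates 1 and 3. The counts of members called lower or higher in RA at 8 h and 30 h are given with and without the library that differs from the rest of its group. So are the log2 fold changes of several genes described at those times. Sums, medians and counts of members whose arms did not overlap include every library. RA 30 h replicates 2 and 3, untreated 54 h replicate 3, day 2 replicate 3 and all 66 h and 78 h libraries carry later library numbers than the others, so the course from 42 to 78 h and this difference in numbering cannot be told apart. In RNA from whole organoids, fewer cells of a type and less RNA per cell cannot be told apart.

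Glycolysis splits glucose to pyruvate in the cytosol. Pyruvate is either reduced to lactate by lactate dehydrogenase and exported, or carried into mitochondria and oxidised by pyruvate dehydrogenase, which the pyruvate dehydrogenase kinases switch off. When oxygen is short, hypoxia-inducible factor (HIF) escapes the prolyl hydroxylases that mark it for destruction and binds a short DNA core, the hypoxia response element, beside many of these genes, among them glucose transporters, most glycolytic enzymes, Ldha, Pdk1, Vegfa and the hydroxylase gene Egln3. Embryonic stem cells and early neuroepithelium are known for high glycolytic activity.

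The upstream sequences of 6 members whose levels are described below are shown as examples. They are a glucose transporter that moved in both directions, and enzymes, a lactate exporter and hypoxia genes that were lower in RA at 3 or more time points. Each run holds the 250 bases before the annotated start in RefSeq (GRCm38.p6), written 5′ to 3′ on the gene's strand. Capitals mark the hypoxia response element core, ACGTG or GCGTG, on either strand (CACGT or CACGC when read from the other strand), with overlapping matches joined.
Slc2a1, chr4:119108495-119108744, plus strand: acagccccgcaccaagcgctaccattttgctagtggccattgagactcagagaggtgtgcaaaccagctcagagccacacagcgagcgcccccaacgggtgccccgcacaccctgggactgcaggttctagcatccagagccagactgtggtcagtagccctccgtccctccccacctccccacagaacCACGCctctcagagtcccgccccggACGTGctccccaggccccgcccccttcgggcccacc
Pgk1, chrX:106186850-106187099, plus strand: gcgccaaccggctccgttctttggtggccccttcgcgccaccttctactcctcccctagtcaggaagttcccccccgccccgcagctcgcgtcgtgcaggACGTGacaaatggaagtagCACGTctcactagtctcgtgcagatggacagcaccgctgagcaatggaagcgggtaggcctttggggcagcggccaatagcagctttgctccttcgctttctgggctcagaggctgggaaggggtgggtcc
Ldha, chr7:46845554-46845803, plus strand: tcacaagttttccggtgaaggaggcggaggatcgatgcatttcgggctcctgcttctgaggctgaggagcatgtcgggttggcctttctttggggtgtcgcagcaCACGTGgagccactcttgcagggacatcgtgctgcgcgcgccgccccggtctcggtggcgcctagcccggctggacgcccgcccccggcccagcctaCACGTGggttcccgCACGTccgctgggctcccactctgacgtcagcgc
Slc16a3, chr11:120948817-120949066, plus strand: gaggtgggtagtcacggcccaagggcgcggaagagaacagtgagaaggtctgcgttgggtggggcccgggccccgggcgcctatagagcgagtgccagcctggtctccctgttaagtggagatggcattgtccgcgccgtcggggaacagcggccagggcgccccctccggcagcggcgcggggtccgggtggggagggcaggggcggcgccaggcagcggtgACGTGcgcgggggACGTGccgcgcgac
Bnip3, chr7:138909507-138909756, minus strand: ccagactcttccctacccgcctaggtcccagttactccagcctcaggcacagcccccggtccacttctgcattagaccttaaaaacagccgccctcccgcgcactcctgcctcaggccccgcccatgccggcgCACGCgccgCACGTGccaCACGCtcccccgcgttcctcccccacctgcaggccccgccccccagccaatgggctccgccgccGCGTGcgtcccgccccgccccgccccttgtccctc
Ddit4, chr10:59951771-59952020, minus strand: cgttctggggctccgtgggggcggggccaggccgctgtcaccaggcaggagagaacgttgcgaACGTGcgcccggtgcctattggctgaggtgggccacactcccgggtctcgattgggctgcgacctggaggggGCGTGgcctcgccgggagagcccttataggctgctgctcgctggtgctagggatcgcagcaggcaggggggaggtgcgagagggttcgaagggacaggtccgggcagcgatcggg
Of the 36 symbols, 34 had promoter entries. No entry was found for Slc2a3 and Ndrg1. The core was found upstream of 31 of the 34 symbols, and in 39 of their 50 entries (78%), against 38.6% of all 32851 promoter entries and 44% of the 21263 entries of protein-coding genes. Bnip3 held 4 separate matches and the Ldha entry shown 3, of which 2 are the palindrome CACGTG. The second Ldha entry held 1. Every entry shown held 2 or more matches, as did 20 of the 50 entries (40%) and 16.9% of the protein-coding entries. Egln3 held 1 match and Tpi1 none, and both were lower in RA at 5 time points. Pdk3, higher in RA at 3 time points, held 4. A relation between the number of matches and the RA effect was not tested. A match describes the letters in this window and is not evidence that a factor binds there.

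The glycolytic enzymes took a smaller share of the RNA in RA-treated than in untreated organoids at every time point. The summed level of 17 enzymes, from hexokinase to pyruvate kinase and lactate dehydrogenase, was 9549 to 15673 CPM in the 21 later untreated libraries and 4612 to 10980 CPM in the 21 RA libraries. At none of the 7 time points did the untreated and RA sums overlap. At 54 h the sums were 10688, 11482 and 11936 CPM untreated and 4612, 6912 and 8003 CPM in RA. Pkm, Gapdh, Ldha and Aldoa make up much of this sum, and the members are therefore described separately below. The summed level of the 8 hypoxia response members overlapped between the arms at 8 h (182 to 263 CPM in RA, 257 to 274 CPM untreated) and at 18 h, and it lay lower in every RA library from 30 h on. Ddit4 makes up much of this sum. Without it, the sum of the other 7 was higher in every RA library at 18 h (193.6 to 213.8 CPM, against 165.8 to 184.5 CPM untreated). It overlapped between the arms at all other times, with 300.6 to 392 CPM in RA and 298.7 to 325 CPM untreated at 78 h. At 8 h RA replicates 1 and 2 (123.1 and 120.1 CPM) lay above the untreated range of 96.6 to 100.8 CPM. RA replicate 3, of low Y-linked expression, lay below it at 88.5 CPM.

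**Figure D1:**
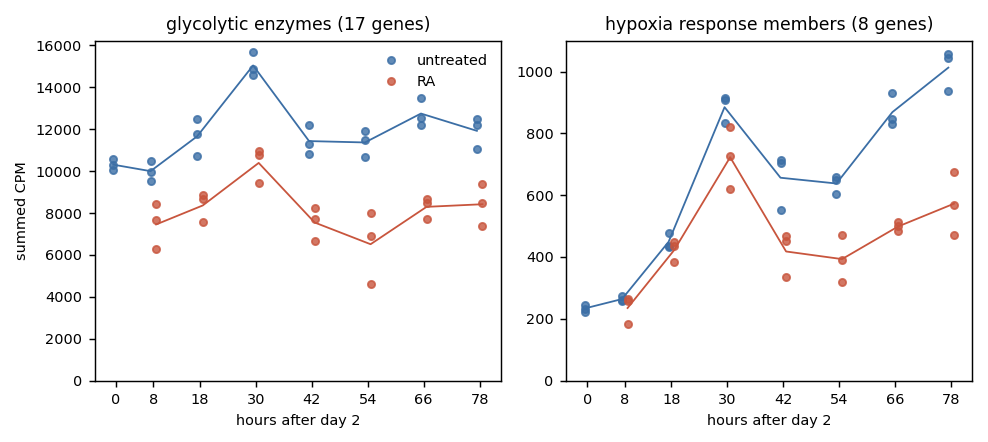
Summed level in CPM of 17 glycolytic enzymes (left) and 8 hypoxia response members (right) against hours after day 2; each point is a library, lines join the means of 3 libraries, and day 2 is hour 0. The glycolytic sum was lower in all RA libraries at each time, with the lowest value, 4612 CPM, in a 54 h RA library.

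Each member was tested at each time point with edgeR's quasi-likelihood test, and a member is called higher or lower where its p, adjusted by Benjamini-Hochberg over all genes tested, was under 0.01. At 8 h, 3 of 36 members tested were lower in RA (1.3% of all genes) and 2 were higher (1.84%). At 18 h, 21 of 37 were lower (20.3% of all genes) and 8 higher (22.3%). At 30 h, 9 were lower (5.92%) and 3 higher (8.21%).

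At 42 h, 19 of 37 members were lower (17% of all genes) and 6 higher (20.5%). At 54 h, 19 were lower (17.9%) and 7 higher (20.8%). At 66 h, 23 were lower (15.6%) and 5 higher (17.8%). At 78 h, 17 were lower (14.2%) and 7 higher (19.2%). The members with a log2 fold change below -1 numbered 3 at 8 h (0.537% of all genes), 1 at 18 h (2.76%), 1 at 30 h (2.48%), 6 at 42 h (4.96%), 10 at 54 h (5.99%), 2 at 66 h (4.44%) and 5 at 78 h (4.03%). Leaving out 1 library gave 0 to 3 at 8 h, 1 to 2 at 18 h and 0 to 1 at 30 h. It gave 3 to 7 at 42 h, 7 to 14 at 54 h, 2 to 4 at 66 h and 1 to 6 at 78 h. At 8 h there were 3 without RA replicate 3 (1.39% of all genes in that fit), and at 30 h 0 without RA replicate 2 (4.54%). At 42 h there were 3 without RA replicate 1 (4.21%), and at 78 h 1 without RA replicate 3 (3.45%). By the adjusted p alone, the share of members that were lower exceeded the share of all genes at every time from 18 h on. The share that were higher was close to or under that of all genes. Beyond a log2 fold change of -1, the members were close to the share of all genes at 18, 30 and 66 h. This was also so at 78 h without RA replicate 3.

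The median log2 fold change of the members lay between -0.29 (8 h) and -0.43 (54 h), whereas the median of all genes lay between -0.01 and 0.04. The 3 RA libraries lay wholly below the 3 untreated ones for 20 to 24 of the members tested at each time, against 19.6% (8 h), 29.3% (18 h), 22.8% (30 h), 26.8% (42 h), 27.7% (54 h), 28.8% (66 h) and 27.4% (78 h) of all genes. They lay wholly above for 5 to 10 members, against 18.2% (8 h), 31.2% (18 h), 25.6% (30 h), 32% (42 h and 54 h), 27.2% (66 h) and 27.9% (78 h) of all genes. Of the 36 members tested at all 7 time points, 15 were lower at 5 or more of them, against 6.63% of all genes. Only 2, Mpc2 and Pfkfb4, were higher at 5 or more (7.96% of all genes). Among genes of at least 50 CPM on average, 13 of 22 members were lower at 5 or more time points, against 10.2% of 4859 such genes.

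Both time points with mixed libraries gave more calls, among members and among all genes, without the library that stood apart. At 8 h, leaving out RA replicate 3 gave 15 of 36 members lower (9.79% of all genes in that fit) and 3 higher (10.6%). Leaving out RA replicate 1 or 2 left at most 1 lower, with 0.462% and 0.452% of all genes. At 30 h, leaving out RA replicate 2, so that only libraries of low Y-linked expression remained, gave 19 of 37 lower (21.7% of all genes in that fit) and 7 higher (22.2%). Leaving out RA replicate 1 left 2 lower (2.66%), and leaving out replicate 3 left 3 (3.73%). With 8 h and 30 h both set aside, 18 of 36 members were lower at 4 or more of the other 5 time points, against 10.4% of all genes. With RA 8 h replicate 3 and RA 30 h replicate 2 left out together, 18 of 36 were lower at 5 or more of the 7, against 10% of all genes. Both of these settings were chosen after seeing the data. At 54 h, without the untreated library of the later number series, 16 members were lower (13.7% of all genes) and 6 higher (16.6%).

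**Figure D2:**
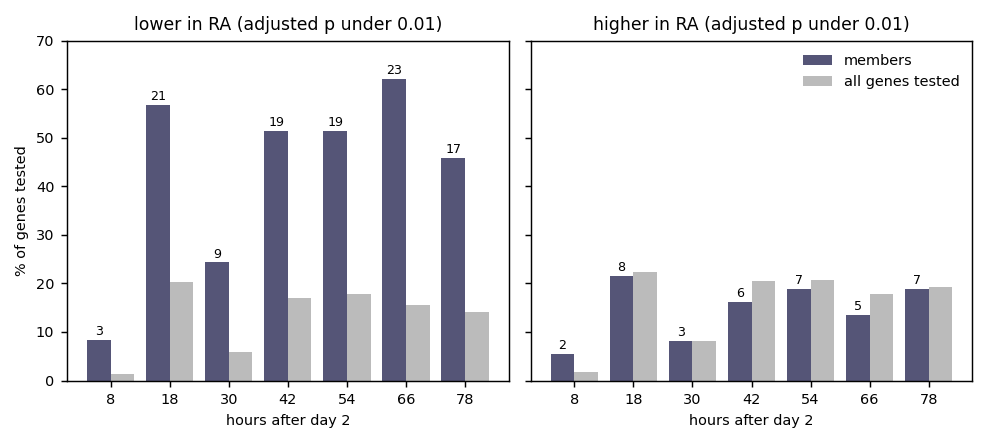
Percent of the members (dark bars) and of all genes tested (grey bars) that were lower (left) or higher (right) in RA at an adjusted p under 0.01, by hours after day 2; numbers above the bars count members. The member bars exceed the grey bars for lower genes at every time, with the tallest, 23 members, at 66 h.

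**Figure D3:**
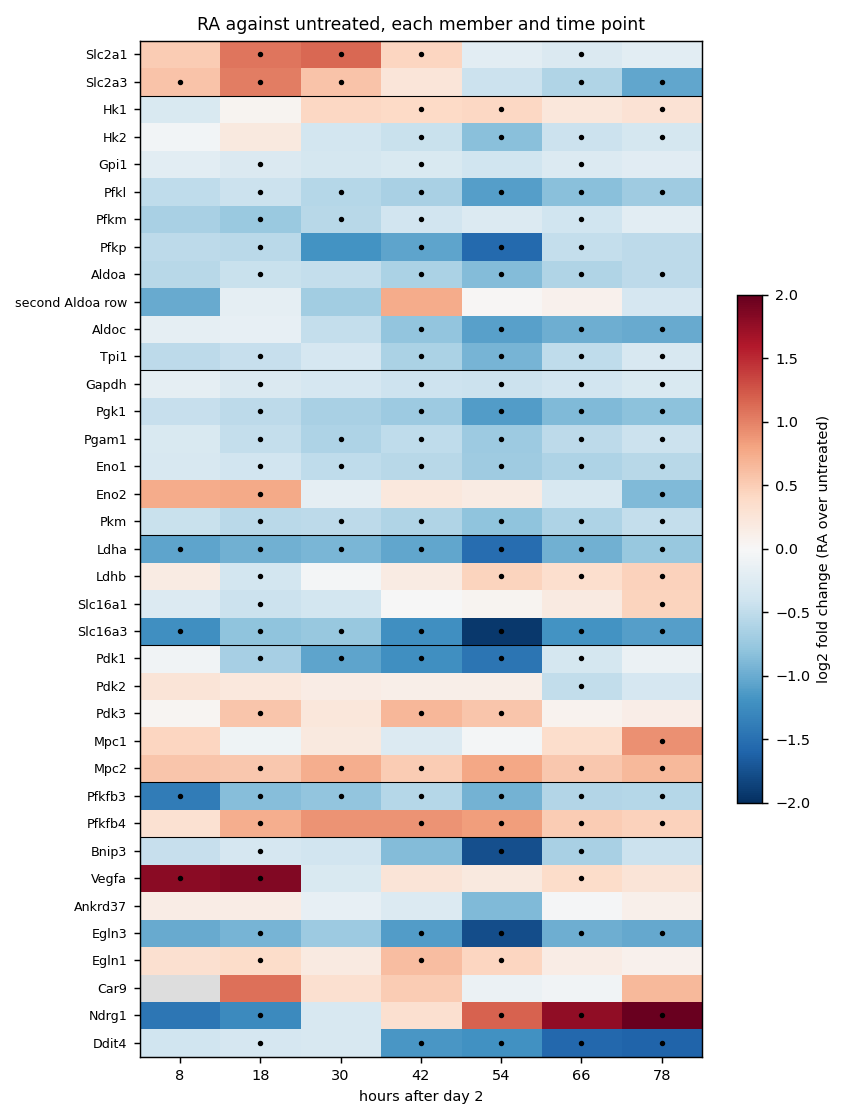
Log2 fold change of RA over untreated for each member (rows, in order of role with lines between roles) and time point (columns, hours after day 2); dots mark an adjusted p under 0.01, and grey marks Car9 at 8 h, which was not tested. Ldha, Slc16a3 and Pfkfb3 are lower at all 7 times, and Slc2a1, Slc2a3 and Ndrg1 change colour along the row.

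Slc2a1 and Slc2a3 encode GLUT1 and GLUT3, the transporters that bring glucose into the cell. Slc2a1 stood at 986, 833 and 987 CPM in the 3 untreated libraries at 18 h and at 1827, 1963 and 2036 CPM in RA. At 30 h the values were 1208, 1305 and 1274 CPM untreated and 2912, 2741 and 2745 CPM in RA, the RA group being the highest of all 15 for this gene. The log2 fold changes were 1.07 (SE 0.06) and 1.15 (SE 0.08), with adjusted p of 2.6e-08 and 0.00014. The arms did not overlap at either time, and the value at 30 h was 1.14 without RA replicate 2. By 42 h the excess had narrowed to 0.43 (SE 0.08), and at 66 h Slc2a1 was lower in RA, at -0.29 (SE 0.07).

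Slc2a3 followed the same course and ended further below the untreated level. At 18 h it stood at 947, 774 and 969.8 CPM untreated and 1642, 1951 and 1843 CPM in RA, a log2 fold change of 1.03 (SE 0.08). At 78 h it stood at 1795, 2055 and 2019.5 CPM untreated and 1146, 999.97 and 673 CPM in RA, a log2 fold change of -1.04 (SE 0.15) with an adjusted p of 0.00015. Between these times the untreated level had climbed and the RA level had dropped, and the RA libraries changed from wholly above to wholly below the untreated ones.

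The hexokinases trap glucose as glucose 6-phosphate. Hk2, the inducible isoform, passed at none of 8, 18 and 30 h and fell at the 4 later times. At 54 h it stood at 294, 353 and 307 CPM untreated and 131, 185 and 223 CPM in RA, a log2 fold change of -0.84 (SE 0.15). Hk1, the constitutive isoform, moved the other way, with log2 fold changes of 0.41, 0.42 and 0.29 at 42, 54 and 78 h. Its level was far lower, with group means from 25.4 to 53.7 CPM against 179.7 to 381 CPM for Hk2.

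Phosphofructokinase commits sugar to glycolysis, and its 3 isoforms were all lower in RA at several times. Pfkp, the platelet isoform, stood at 163, 133 and 119.6 CPM untreated and 21.6, 57.0 and 64.1 CPM in RA at 54 h, a log2 fold change of -1.56 (SE 0.29). Every RA library was under every untreated one, and RA replicate 1 was far under the other RA libraries. Pfkl, the liver isoform and the most abundant of the 3, stood at 608, 664 and 624 CPM untreated and 331, 358 and 369 CPM in RA at 66 h, a log2 fold change of -0.83 (SE 0.06), and it was lower at 6 of 7 times. Pfkm, the muscle isoform, was lower at 5 of 7 times, with its largest difference, -0.73 (SE 0.07), at 18 h.

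The aldolases and triose phosphate isomerase, which make and interconvert the triose phosphates, were also lower. Aldoc, the aldolase typical of brain, stood at 24.1, 31.1 and 29.2 CPM untreated and 16.1, 15.5 and 9.91 CPM in RA at 78 h, a log2 fold change of -1.01 (SE 0.15), and it passed the test at the 4 latest times only. Aldoa and Tpi1 were each lower at 5 of 7 times, with log2 fold changes at 54 h of -0.86 and -0.94. Gpi1, the isomerase before phosphofructokinase, was lower at 18, 42 and 66 h, by at most 0.31 on the log2 scale. The weaker Aldoa row passed no RA comparison and held under 3 CPM on average in every group.

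Among the enzymes of the later steps, which earn ATP and NADH, Gapdh, Pgk1, Pgam1, Eno1 and Pkm were each lower at 5 or 6 of the 7 times. Pgk1, the kinase of the ATP-forming step, stood at 395, 415 and 449 CPM untreated and 126, 209 and 251 CPM in RA at 54 h, a log2 fold change of -1.12 (SE 0.18). Its RA libraries lay under every untreated library. At 54 h the log2 fold changes of Pgam1, Eno1 and Pkm were -0.72, -0.72 and -0.81, and that of Gapdh, a common reference gene, was -0.42. Eno2, the neuronal enolase, was higher in RA at 18 h, at 0.75 (SE 0.12), and lower at 78 h, at -0.88 (SE 0.16). Part of the sequence of some of these genes is shared with other genes, pseudogenes among them: 52.8% of the 75-base windows of Pgk1, 34.9% of Pgam1, 23% of Eno1, 22.6% of Gapdh and 17.8% of Pkm also occur in another gene. Their levels are uncertain to that extent.

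Lactate dehydrogenase A was lower in RA throughout. Ldha, the subunit that favours lactate production, stood at 1029, 1007 and 1151 CPM untreated and 609, 547 and 376 CPM in RA after 8 h. At 54 h it stood at 1557, 1669 and 1722 CPM untreated and 255, 651 and 837 CPM in RA. The log2 fold change was -1.05 (SE 0.16) at 8 h, -1.52 (SE 0.30) at 54 h and -0.76 (SE 0.12) at 78 h, and the arms did not overlap at any of these times. Ldha passed the test at all 7 times, but its call at 8 h was lost with any library other than RA replicate 3 left out (adjusted p from 0.012 to 0.062) and with the replicate block (0.031). Without RA replicate 3 the log2 fold change at 8 h was -0.89. The call at 30 h was lost without untreated replicate 2 (adjusted p by edgeR 0.012) or 3 (0.011), and the value was -0.81 without RA replicate 2.

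Ldhb, the subunit that favours the return of lactate to pyruvate, went another way. At 18 h it was lower in RA, with 214, 196 and 208 CPM untreated and 154, 159 and 162 CPM in RA. At 78 h it was higher, with 78.4, 85.6 and 80.1 CPM untreated and 111, 112 and 110.0 CPM in RA, a log2 fold change of 0.46 (SE 0.05). The arms were separate at both times, with opposite order. Of its 75-base windows, 12.6% also occur in another gene.

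Slc16a3 encodes MCT4, the lactate exporter of strongly glycolytic cells, and it showed the largest drop of any member at 54 h. It stood at 259, 279.8 and 271 CPM in untreated libraries and at 20.8, 76.9 and 118 CPM in RA, a log2 fold change of -1.93 (SE 0.41), or 3.81-fold lower, with an adjusted p of 0.0024. RA replicate 1 alone lay at 20.8 CPM, and the other RA libraries were still under every untreated one. After 8 h it already stood at 69.1, 59.0 and 44.5 CPM in RA against 126, 134 and 144 CPM untreated. Slc16a3 was lower at all 7 times, by 0.75 on the log2 scale at 30 h at the least. Its call at 8 h was lost without any 1 of the untreated libraries or RA replicate 2 (adjusted p by edgeR from 0.015 to 0.031) and with the replicate block (0.018). Without the libraries that stood apart, the log2 fold change was -1.08 at 8 h and -0.74 at 30 h. Slc16a1 (MCT1), the general lactate and pyruvate carrier, was lower at 18 h, at -0.44 (SE 0.05), and higher at 78 h, at 0.44 (SE 0.05).

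**Figure D4:**
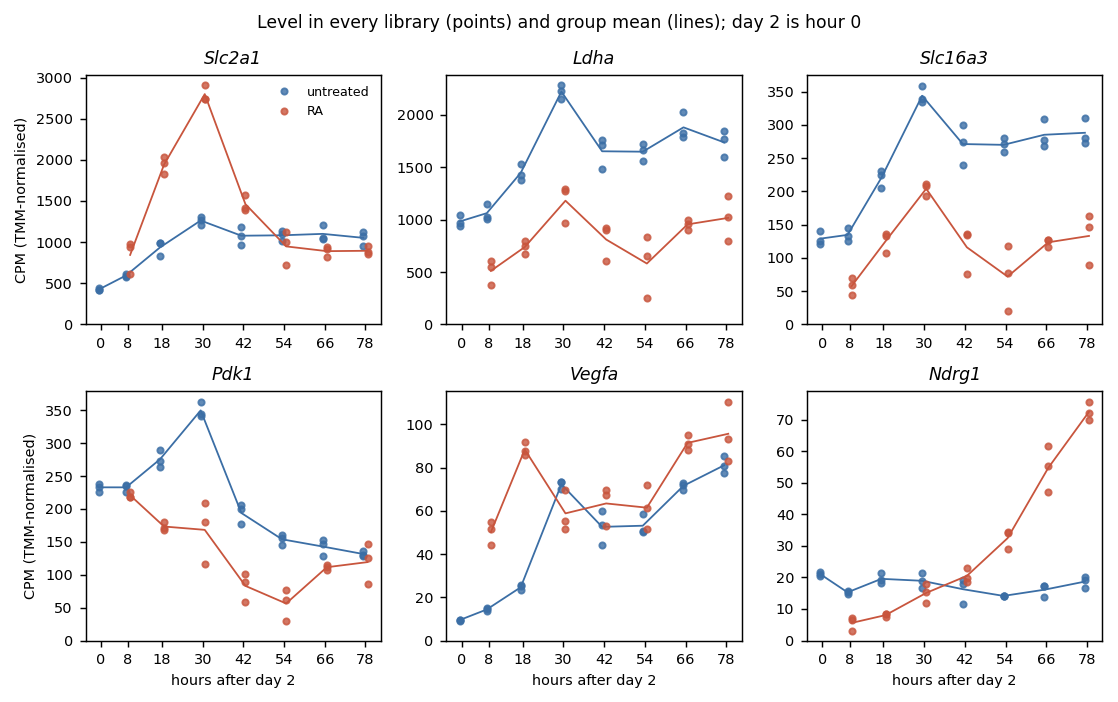
Level of 6 members in CPM against hours after day 2, with untreated libraries in blue and RA libraries in red; points are single libraries, lines join the means of 3, and day 2 is hour 0. Ldha and Slc16a3 lie lower in RA throughout, and Slc2a1 peaks in RA at 30 h with 2741 to 2912 CPM. Vegfa lies higher in RA at 8 and 18 h, and Ndrg1 lies lower in RA at 18 h and higher at 78 h.

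At the entry of pyruvate into mitochondria, the members differed from each other. Pdk1, the pyruvate dehydrogenase kinase that HIF induces, stood at 226, 235 and 237 CPM untreated and 218, 219 and 225 CPM in RA at 8 h, a difference that did not pass the test although the arms did not overlap. The log2 fold change of Pdk1 at 8 h was -0.07, and -0.10 without RA replicate 3. At 42 h Pdk1 stood at 205, 177 and 199 CPM untreated and 58.8, 89.6 and 101 CPM in RA, a log2 fold change of -1.23 (SE 0.16). At 54 h the log2 fold change was -1.47 (SE 0.24), and by 78 h it was -0.12 (SE 0.14) with an adjusted p of 0.5. The arms were separate at 42 and 54 h and overlapped at 78 h, where the untreated level was also lower than before.

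Pdk3 was higher in RA at 18, 42 and 54 h, by 0.56, 0.66 and 0.56. Pdk2 was low, under 7 CPM in every group mean, and fell only at 66 h. Mpc2, a subunit of the mitochondrial pyruvate carrier, was higher in RA at 6 of 7 times with log2 fold changes of 0.51 to 0.77. Mpc1, its partner, passed only at 78 h, at 0.91 (SE 0.19), from 1.97 ± 0.423 CPM untreated and 3.63 ± 0.127 CPM in RA (mean ± SD, n = 3).

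Pfkfb3 and Pfkfb4 set the level of fructose 2,6-bisphosphate, the allosteric activator of phosphofructokinase, and they were opposed. Pfkfb3 stood at 30.7, 33.0 and 32.0 CPM untreated and 14.2, 13.8 and 8.12 CPM in RA after 8 h, a log2 fold change of -1.40 (SE 0.19), and it was lower at all 7 times. Without RA replicate 3 the value at 8 h was -1.20. The call at 8 h was lost with any other library left out (adjusted p by edgeR from 0.014 to 0.045) or with the replicate block (0.018). At 30 h it was likewise lost with any library other than RA replicate 2 left out, and without that one the value was -0.64. Pfkfb4 was higher at 5 of 7 times, at 0.90 (SE 0.12) at 42 h, from group means of 2.93 CPM at day 2 to 10.7 CPM in RA at 78 h. The lower member of the pair was thus the more abundant.

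The hypoxia response members did not move as a block. Vegfa, the angiogenic growth factor, was raised early: it stood at 15.1, 13.5 and 14.6 CPM untreated and 54.6, 51.4 and 44.3 CPM in RA at 8 h, and at 23.3, 25.6 and 25.0 and 85.6, 87.5 and 91.9 CPM at 18 h. The log2 fold changes were 1.81 (SE 0.10) and 1.85 (SE 0.06), with adjusted p of 0.00016 and 7.3e-11, and the value at 8 h was 1.87 without RA replicate 3. Every RA library was above every untreated one. At 30 h the order was turned, with 70.2, 73.4 and 73.2 CPM untreated and 55.4, 51.5 and 69.5 CPM in RA, but the difference did not pass. The log2 fold change of Vegfa at 30 h was -0.30, and -0.23 without RA replicate 2. Later, Vegfa passed only at 66 h, at 0.36 (SE 0.05).

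Egln3, the prolyl hydroxylase gene most responsive to hypoxia, was lower in RA. At 54 h it stood at 37.0, 36.9 and 31.5 CPM untreated and 5.01, 12.2 and 13.7 CPM in RA, a log2 fold change of -1.78 (SE 0.25). It was lower at 5 of 7 times, and the arms did not overlap at 54 h. Egln1, the main oxygen-sensing hydroxylase, was higher at 18, 42 and 54 h, by 0.36, 0.62 and 0.43.

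Bnip3, which marks mitochondria for removal, passed at 18, 54 and 66 h. At 54 h it stood at 59.5, 54.7 and 51.3 CPM untreated and 6.28, 19.1 and 24.2 CPM in RA, a log2 fold change of -1.75 (SE 0.31). At 30 h its RA libraries were split, with 87.0, 34.3 and 97.7 CPM against 100.03, 87.1 and 95.9 CPM untreated, and replicate 2, the one with the higher Y-linked level, was the low one. The log2 fold change of Bnip3 at 30 h was -0.38, and -0.06 without RA replicate 2, and it passed in neither fit. Of the 75-base windows of Bnip3, 11.4% also occur in other genes.

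Ddit4 (REDD1), an inhibitor of mTORC1 that hypoxia and stress induce, was lower by a widening margin. It stood at 263, 268 and 294 CPM untreated and 191, 233 and 225 CPM in RA at 18 h, and at 635, 731 and 746 and 284, 232 and 171 CPM at 78 h. The log2 fold change went from -0.34 (SE 0.07) to -1.60 (SE 0.14), and it passed at 18 h and at the 4 latest times. From day 2 to 78 h it rose 4.93-fold untreated and 1.61-fold in RA.

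Ndrg1, a hypoxia-responsive gene linked to differentiation, crossed from lower to higher. At 18 h it stood at 19.0, 18.1 and 21.5 CPM untreated and 7.38, 8.29 and 8.48 CPM in RA, a log2 fold change of -1.27 (SE 0.09). At 78 h it stood at 20.1, 19.3 and 16.7 CPM untreated and 75.5, 69.9 and 72.0 CPM in RA, a log2 fold change of 1.97 (SE 0.08), or 3.93-fold higher, with an adjusted p of 8e-09. This was the largest difference of any member. The RA libraries were wholly below at the earlier time and wholly above at the later.

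Car9, a carbonic anhydrase widely used as a hypoxia marker, was close to absent. It had at most 25 counts in any library and stood at 0.236, 0.494 and 0.469 CPM untreated and 0.653, 0.725 and 0.354 CPM in RA at 42 h. It was not tested at 8 h and passed at no other time, and at this depth a difference was not detectable. Ankrd37, a small HIF target, had group means of 2.5 to 7.41 CPM and also passed no RA comparison.

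The members also moved with time in the untreated organoids. Between day 2 and 8 h, 2 of 36 members rose (3.49% of all genes) and 5 fell (4.02%). From 8 to 42 h, 19 rose (25.3%) and 3 fell (23.6%), and from 42 to 78 h 10 of 37 rose (18.9%) and 2 fell (14.5%). Over the whole span from day 2 to 78 h, 24 of 36 rose (36.2%) and 5 fell (33.3%), with a median log2 fold change of 0.65. The risers were led by Egln1 at 3.10 (SE 0.07) and Vegfa at 3.09 (SE 0.07). Vegfa stood at 9.12, 9.59 and 9.71 CPM at day 2. The members that fell included Ldhb at -1.55 (SE 0.06) and Mpc1 at -1.73 (SE 0.20).

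Over time in RA, several counts of members lay near the share of all genes. From 8 to 42 h, 10 of 36 members rose (19.3% of all genes) and 3 fell (15.5%). Without RA 8 h replicate 3 these counts were 16 (27.3% of all genes) and 6 (24.6%). In 1 fit of all 45 libraries 18 rose in RA (24.9%) and 13 untreated (19.7%). The difference in these counts between the arms was not tested. From 42 to 78 h, 6 rose (12.1%) and 4 fell (9.57%), the 4 being Slc2a1, Slc2a3, Eno2 and Pdk3. From day 2 to 78 h, 15 of 37 rose (36.8%) and 10 fell (33.1%), with a median log2 fold change of 0.51. Both comparisons with day 2 share its 3 libraries. Ldha, which rose by 0.82 (SE 0.07) in untreated organoids, stood at 0.05 (SE 0.12) in RA and did not pass. Slc16a3 stood at 1.16 (SE 0.07) untreated and 0.04 (SE 0.16) in RA. Pgam1, Eno1, Pkm and Gapdh fell in RA, by 0.39, 0.75, 0.46 and 0.34 on the log2 scale, and passed in neither direction untreated.

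Of 32 members averaging at least 5 CPM, 17 had their highest group mean in untreated organoids at 30 h, among them Pfkp, Aldoa, Tpi1, Gapdh, Pkm, Ldha, Slc16a3, Pdk1, Bnip3 and Egln3, against 11.4% of 11160 genes. The lowest group mean of 12 members was in RA at 8 h (8.84% of all genes) and that of 9 in RA at 54 h (9.32%). All 3 untreated libraries at 30 h were among those of low Y-linked expression, and the part of this in the maximum was not tested. With both 30 h groups set aside, the highest mean of 8 members lay in untreated organoids at 66 h (3.71% of all genes) and that of another 8 at 78 h (10.7%). RA 8 h replicate 3, of low Y-linked level, was the lowest of its group for 23 of 31 members of at least 5 CPM (42.8% of all such genes). RA 30 h replicate 2, of higher Y-linked level, was the lowest of its group for 26 of 33 (50.5%).

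In several RA groups the replicates spread more widely in these genes than in others. In RA at 54 h the highest of the 3 libraries exceeded the lowest by a median factor of 1.63 over 32 members, against 1.11 over 11022 genes of at least 5 CPM, and replicate 1 was the lowest for 29 of the 32 (46.7% of all such genes). The median factor was 1.53 in RA at 8 h (1.21 over all genes), 1.26 at 42 h (1.11) and 1.27 at 78 h (1.11). In RA at 30 h it was 1.26, under the 1.33 of all genes. In the 7 untreated groups it was 1.1 to 1.18. The low library was replicate 1 for 23 of 32 members at 42 h (27.6% of all genes) and replicate 3 for 26 of 33 at 78 h (32.7%). Leaving out RA 54 h replicate 1 left 19 members lower (18.4% of all genes in that fit), 7 of them with a log2 fold change below -1 (5.57%).

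**Figure D5:**
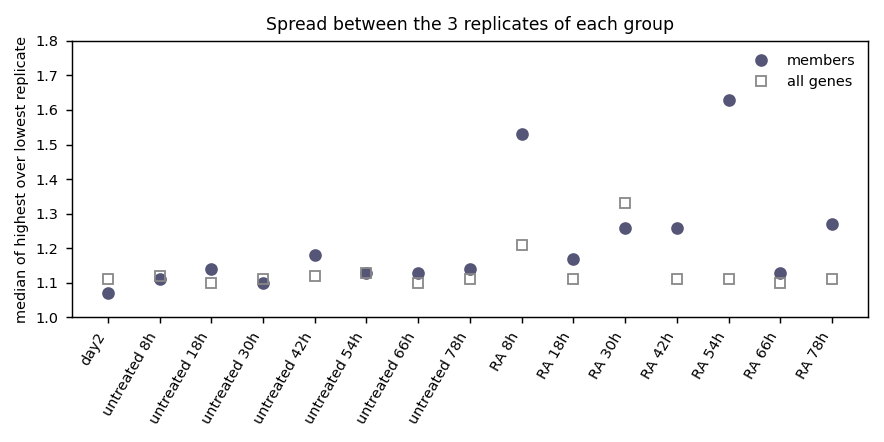
Median ratio of the highest to the lowest of 3 replicates in each group, for members of at least 5 CPM (filled circles) and all genes of at least 5 CPM (open squares). The members exceed all genes most in RA at 54 h, at 1.63 against 1.11, and in RA at 8 h, at 1.53 against 1.21.

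Whether the RA effect differed between time points was tested as an interaction. Between 18 and 42 h the effect moved up for 3 of 37 members (8.26% of all genes) and down for 5 (7.92%). Vegfa lost its early excess, with a difference of -1.57 (SE 0.15), and Slc2a1 and Slc2a3 lost part of theirs, with -0.62 (SE 0.11) and -0.75 (SE 0.13). Ndrg1 gained, with 1.62 (SE 0.21). Between 42 and 78 h the effect moved up for 5 members (5.81%) and down for 6 (6.79%). The effect on Ndrg1 moved up again, by 1.63 (SE 0.20), that of Pdk1 moved up by 1.09 (SE 0.25), and that of Slc2a3 moved down further, with -1.31 (SE 0.20). For Ldha the differences were -0.06 (SE 0.17) and 0.26 (SE 0.21) and for Slc16a3 -0.40 (SE 0.22) and 0.12 (SE 0.28), none of which passed.

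Other genes of these pathways did not all share the members' direction. Of all genes, 20.3% were lower and 22.3% higher in RA at 18 h, and 17% lower and 20.5% higher at 42 h. Of 9 pentose phosphate genes, which branch from glucose 6-phosphate to make NADPH and ribose, 6 were lower and none higher at 18 h, and 4 lower and none higher at 42 h. G6pdx, the entry enzyme, had a log2 fold change of -0.76 at 42 h, and the ribose phosphate kinases Prps1 and Prps2 had -0.72 and -0.96. Of 27 pyruvate dehydrogenase and citric acid cycle genes, 11 were lower and 2 higher at 42 h. They included Pdp1 and Pdp2, the phosphatases that oppose the Pdk kinases, at -1.03 and -0.89, while Idh2 was higher at 0.79.

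Of 28 other hypoxia response genes, 5 were higher (20.5% of all genes) and 8 lower (17%) at 42 h. The same shares of all genes apply to the lists that follow. Adm (adrenomedullin) stood at -2.20, Bhlhe41 at -2.08 and Selenbp1 at 2.00. Their levels were low, at 1.95, 7.63 and 1.78 CPM averaged over both arms at 42 h. Of 24 further glycolytic and sugar enzymes, 6 were higher and 6 lower at 42 h. Fbp1 had -1.67 and Pdk4 -1.37, at averages of only 1.14 and 2.38 CPM over both arms. Of 13 HIF subunits and regulators, 5 were higher and 2 lower. Hif1a, the main oxygen-regulated subunit, had group means of 158.7 to 256 CPM and passed no RA comparison, with a log2 fold change of -0.05 at 42 h. Siah2, a ubiquitin ligase that acts on the prolyl hydroxylases, was among the higher ones, at 0.48. Epas1 (HIF-2 alpha) had -1.07 and Hif3a, an inhibitory relative, had -0.88. Of 11 mTORC1, p53 and stress genes, 2 were higher and 4 lower at 42 h, with Chac1 at -1.59, Trib3 at -1.41 and Atf4 at -0.67.

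Cell type markers moved with RA as well. Of all genes, 20.5% were higher and 17% lower in RA at 42 h, and 19.2% higher and 14.2% lower at 78 h. At 42 h, 5 of 7 neuroepithelial markers were higher and 1 lower in RA, and their summed level was 972 to 1136 CPM against 572 to 688 CPM untreated. At the same time, 2 of 6 pluripotency markers were lower and 1 higher, and their summed level was 235 to 349.9 CPM in RA against 868 to 1007 CPM untreated. At 78 h 2 pluripotency markers were higher and 1 lower, and the sums overlapped (270 to 512.5 CPM in RA, 478 to 578 CPM untreated). At 78 h, 5 of 5 trophoblast markers were higher, with a sum of 178.7 to 183 CPM against 20.5 to 22.3 CPM. At 42 h 3 of 4 tested were higher and 1 lower. All 3 endothelial markers were higher at 78 h, with a sum of 47.6 to 60.6 CPM against 15.8 to 20.3 CPM. Their sum at day 2, before treatment, was larger, at 92.1 to 113.8 CPM, and the 2 tested at 42 h did not pass. Neuronal markers were lower at 42 h (4 of 5), with a sum of 88.8 to 99.7 CPM against 225.6 to 260.6 CPM, and at 78 h 3 were higher and 1 lower. Of 3 endoderm markers, 2 were higher at 42 h, with a sum of 10.5 to 13.5 CPM against 1.98 to 2.12 CPM. Of 4 neural crest markers 1 was lower at 42 h, as was 1 of 2 mesoderm markers tested. No marker was at 0 in all 3 libraries of a group at 42 or 78 h. Elf5, a trophoblast marker, was at 0 in untreated organoids at 30 h, and Mesp1, a mesoderm marker, in RA at 54 and 66 h. The part of these cell type markers in the differences of the glycolytic and hypoxia genes was not tested.

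Per kilobase of exon, the members spanned more than 3 orders of magnitude. Averaged over the 15 groups, Pkm was the most abundant at 574 CPM per kb, followed by Aldoa at 395, Ldha at 371, Slc2a1 at 329 and Gapdh at 307. Within a step, 1 isoform usually dominated: Hk2 stood at 48.8 CPM per kb against 4.67 for Hk1, Eno1 at 155.7 against 1.2 for Eno2, and Aldoa at 395 against 5.68 for Aldoc. The lowest were Car9 at 0.166, Eno2 at 1.2 and Pfkfb4 at 1.28 CPM per kb. Over the 15 group means, Ndrg1 ranged the most, 13-fold, followed by Vegfa at 10.1-fold, Egln1 at 9.07-fold and Pfkp at 8.45-fold, and Gapdh the least, at 1.62-fold. The strand setting of the counting is not given in the sources used here, and the annotation places genes on the opposite strand over parts of Slc2a1, Hk1, Gpi1, Pfkm, Pfkp, Aldoa, Tpi1, Gapdh, Mpc1, Bnip3, Ankrd37, Car9 and Ndrg1. Their reads are uncertain to that extent.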

How the data were processed

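RNA of neural tube organoids was sequenced from poly(A) libraries made with a directional kit, in 45 libraries. The submitters' processing notes name Trim Galore 0.5.0, Bowtie2 2.3.4.1 and featureCounts of Subread 1.6.2. By the study's methods, Bowtie2 served to filter out abundant sequences, and STAR was the aligner to the mouse genome. The authors deposited raw counts per Ensembl gene as whole numbers, without normalisation, for 54532 genes. The strand setting is not given in the sources used here.

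Counts were analysed with edgeR 4.0.16 in R 4.3.3. Genes of low count were removed with filterByExpr (count minimum 10, total minimum 15), libraries were scaled by TMM, and the quasi-likelihood test was fitted to all remaining genes of the groups compared, with Benjamini-Hochberg adjustment over all of them. An adjusted p under 0.01 was required, and members beyond -1 on the log2 scale were counted separately. The standard error was taken from the fold change and the test statistic. Levels are CPM of all 45 libraries scaled together. Promoters and exon lengths came from the reference tables, and matches were counted on both strands.

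Groups and replicate numbers follow the sample titles. Values of every library are given for a set of members chosen by role and for up to 8 further members of large RA effect. Of each other list, up to 3 genes of largest change at 42 h are named (1 further gene is not reported here), and Hif1a was added after its values were seen. The members and lists were chosen with earlier results of these data known. The lists of other glycolytic, pentose phosphate, citric acid cycle, HIF, hypoxia and stress genes were treated in the same way as the members, as were the cell type markers.

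The replicate number was taken to pair the arms where all 3 correlations of same-numbered deviations were over 0.1, which held at 66 h (0.53, 0.22 and 0.25) and at no other time, with 0.32, 0.02 and 0.33 at 78 h. With the replicate number as a block, 23 members were lower (20% of all genes) and 7 higher (21.5%) at 66 h.

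Alternatives were library totals, DESeq2 1.42.0, other filters, an adjusted p under 0.05, a replicate block, 1 fit of all 45 libraries, libraries of 1 number series, and each library left out. In counts simulated for the comparison at 42 h (16230 genes), the test recovered 70% of 50 genes changed 1.5-fold, 94% of those changed 2-fold and 100% of those changed 4-fold or 8-fold. The changed genes were drawn from those with an expected mean of at least 50 counts. These rates do not cover members of lower count, such as Car9. Nor do they cover the wider spread of the members in RA at 42 h, a median factor of 1.26 against 1.11 over all genes. Depth ran from 17298632 to 39688686 counts per library. Sequenced fragments carried no molecular identifiers, so counts are not numbers of molecules.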

Additional observations from a re-analysis of the deposited data

Results flagged for a closer look

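For 8 members the RA effect differed between 18 and 42 h, and for 11 between 42 and 78 h, by edgeR's interaction test at an adjusted p under 0.01. Values are the later log2 fold change of RA over untreated minus the earlier one. Between 18 and 42 h the difference was -0.62 for Slc2a1, -0.75 for Slc2a3, -0.62 for Hk2, -1.57 for Vegfa and -0.80 for Ddit4. It was positive for Ldhb at 0.54, Slc16a1 at 0.45 and Ndrg1 at 1.62. Between 42 and 78 h the difference was -0.66 for Slc2a1, -1.31 for Slc2a3, -1.10 for Eno2, -1.10 for ENSMUSG00000114515, -0.55 for Pdk3 and -0.55 for Egln1. It was positive for Ldhb at 0.29, Slc16a1 at 0.44, Pdk1 at 1.09, Mpc1 at 1.16 and Ndrg1 at 1.63. Eno2, Mpc1 and ENSMUSG00000114515 averaged under 6 CPM.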

How the results depend on the processing

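No member that passed in the fit reported changed direction in that comparison under any alternative run. Members that passed only under an alternative were not followed in this way, and gained calls are not part of the next 2 sentences. Among 2329 such values of single members under another scaling, filter, tool, fit or threshold, 2214 still passed and 115 no longer passed. With a library left out, 1564 of 1800 still passed. Of the member counts, 231 of 262 stayed within 1.5 times the value reported, and 168 of 216 with a library left out. The cause of the shifts below was not tested.

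At 8 h, lower members numbered 8 with DESeq2 (4.79% of all genes), 9 with no filter (1.55%) and 10 in 1 fit of all 45 libraries (7.28%). They numbered 8 at an adjusted p under 0.05 (5.25%) and 0 with the replicate block (0.265%). Higher members at 8 h numbered 4 in the fit of all libraries (7.45%) and 1 with the block (0.6%). At 30 h, lower members numbered 3 with library totals, 17 with DESeq2, 3 with the block, 18 at an adjusted p under 0.05 and 20 within 1 library number series, where a lone RA library was assumed to vary like the untreated ones. Higher members at 30 h numbered 5 with library totals, DESeq2, the fit of all libraries or an adjusted p under 0.05, and 7 within the series. At 30 h, 3.93% of all genes were lower with library totals, 11.4% with DESeq2 and 4.46% with the block. At an adjusted p under 0.05, 12.7% were lower and 16.2% higher. The share of all genes that were higher was 10.9% with library totals, 12.9% with DESeq2 and 21% in the fit of all libraries. The counts within the series rest on 1 RA library and are not set against a share. The fit of all libraries gave 12 lower at 18 h (13.2% of all genes) and 15 lower at 66 h (10.3%). Higher members numbered 10 at 42 h with no filter (12.9% of all genes) and 8 at 66 h at an adjusted p under 0.05 (24.3%). Library totals moved the median of all genes to 0.138 at 18 h and 0.179 at 30 h on the log2 scale.

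From day 2 to 8 h untreated, 5 rose at an adjusted p under 0.05 (8.12% of all genes), and 1 fell in the fit of all libraries (1.11%). That fit gave 1 falling from 42 to 78 h untreated (10.2%), and 18 rising (24.9%) and 5 falling (23.3%) from 8 to 42 h in RA. From 42 to 78 h in RA, 15 rose with no filter (9.18%) and 1 with the block (6.83%). For the change of the RA effect between 18 and 42 h, no filter gave 5 up (5.02%) and 10 down (4.9%). Between 42 and 78 h the block gave 2 up (5.06%). In the block fits, 258 values of single members that passed in the fit reported kept their call and 24 no longer passed. Outside 66 h the numbers did not meet the limit set for pairing, and the block gave 22 lower at 78 h (18% of all genes).

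Leaving out each library in turn gave these ranges, with the range over all genes in brackets. At 8 h, 0 to 15 members were lower (0.153% to 9.79%) and 1 to 3 higher (0.373% to 10.6%). At 30 h, 1 to 19 were lower (1.85% to 21.7%) and 1 to 7 higher (2.29% to 22.2%). At 66 h, 3 to 7 were higher (12.8% to 17.9%), and at 78 h 4 to 8 (14.1% to 20.1%). The widest shifts came from RA 8 h replicate 3 and RA 30 h replicate 2. From day 2 to 8 h 3 to 5 fell (2.34% to 3.96%). In untreated organoids 1 to 4 fell from 8 to 42 h (17.8% to 22.5%), and 2 to 3 from 42 to 78 h (9.6% to 14.8%). From 8 to 42 h in RA 4 to 16 rose (11.2% to 27.3%) and 2 to 6 fell (7.14% to 24.6%). From 42 to 78 h in RA 1 to 6 rose (7.28% to 11.7%) and 2 to 4 fell (4.67% to 9.12%). For the change of the RA effect, 3 to 5 moved up between 18 and 42 h (5.71% to 9.14%). Between 42 and 78 h, 2 to 4 moved up (4.21% to 5.8%) and 4 to 5 down (4.33% to 6.51%). With both 30 h groups set aside, no count for that time exists. Depth limits Car9, which had at most 25 counts in a library.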
